A study of Mus musculus with 6 samples.

Results

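Transcripts of 10 heme and iron handling genes were described in RNA sequencing libraries of adherent mouse bone marrow cells, of 39017 gene identifiers in the count table. The genes were taken as a list of known functions, by symbol, and each of the 10 had counts in every library and entered the test. They cover heme release and breakdown (Slc48a1, Hmox1, Blvrb), iron storage (Fth1, Ftl1), iron uptake and reduction (Tfrc, Slc11a1, Slc11a2, Steap3) and iron export (Slc40a1). The cells came from wild-type BALB/c mice, an inbred strain, of 2 ages. There were 3 libraries from young mice, aged 3 weeks, and 3 from old mice, aged over 78 weeks. In both ages the marrow was freed by crushing limb bones, floating cells were discarded, and the attached cells were expanded in alpha-MEM with fetal bovine serum and labelled as macrophages carrying F4/80 and CD169. Each library was made from 10000 cells by a low-input amplification kit. The labels name no separate animals behind the libraries, so the p-values speak only of the spread among these 6 libraries, which may be technical. The series title places the comparison in work on how the age of the marrow goes with B-cell leukemia.

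Macrophages of the marrow, spleen and liver take up worn-out red blood cells and return their iron to the blood. Inside the phagosome heme is freed from hemoglobin, carried to the cytosol by the heme transporter HRG1, opened by heme oxygenase 1 to biliverdin, carbon monoxide and iron, and the iron is either stored in ferritin, a shell of heavy and light chains, or exported by ferroportin. Cells that need iron instead take up transferrin through its receptor, reduce the iron in the endosome with STEAP3 and pass it to the cytosol through DMT1. Iron regulatory proteins tie both branches together: they bind a hairpin in messenger RNA, the iron-responsive element, and block translation where it lies before the coding sequence or protect the transcript where it lies after it.

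The hairpins are shown because they sort the genes into these 2 kinds of control. GENCODE M21 transcripts were searched on their sense strand for the element's core: a bulged C, 5 stem bases, the loop CAGTGN with a last base other than G, and 5 bases that pair with the stem. Such a match lay before the coding sequence in 0.105% of 21901 coding genes and after it in 0.457%. Of the 10 genes, Fth1, Ftl1 and Slc40a1 each had 1 match in the 5′ untranslated region, and Tfrc had 4 in the 3′ untranslated region. The remaining 6 had no match to these letters, from which nothing follows about binding; Slc11a2 is known for an element of less regular form. Each window of 30 bases is given 5′ to 3′ as DNA letters, with the bulged C and the loop in capitals. The Fth1 window lies at chr19:9982732-9982761 on the plus strand, that of Ftl1 at chr7:45459778-45459807 on the minus strand and that of Slc40a1 at chr1:45925464-45925493 on the minus strand of mm10. The Tfrc windows lie on the plus strand at chr16:32631219-32631248, chr16:32631598-32631627, chr16:32631663-32631692 and chr16:32631710-32631739.
Fth1: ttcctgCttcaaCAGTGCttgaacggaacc
Ftl1: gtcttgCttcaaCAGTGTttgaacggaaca
Slc40a1: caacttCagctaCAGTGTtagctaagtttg
Tfrc site A: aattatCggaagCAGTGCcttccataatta
Tfrc site B: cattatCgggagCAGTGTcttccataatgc
Tfrc site C: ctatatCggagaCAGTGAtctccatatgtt
Tfrc site D: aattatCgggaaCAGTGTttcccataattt

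The ferritin windows matched each other at 26 of 30 positions, and each matched the Slc40a1 window at 13. The Tfrc windows matched one another at 18 to 25 positions. In the transcripts drawn here the windows before the coding sequence began at base 87 of Fth1, 78 of Ftl1 and 90 of Slc40a1, and the Tfrc windows began between bases 3315 and 3806, within the 2461 bases that follow its coding sequence.

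**Figure D1:**
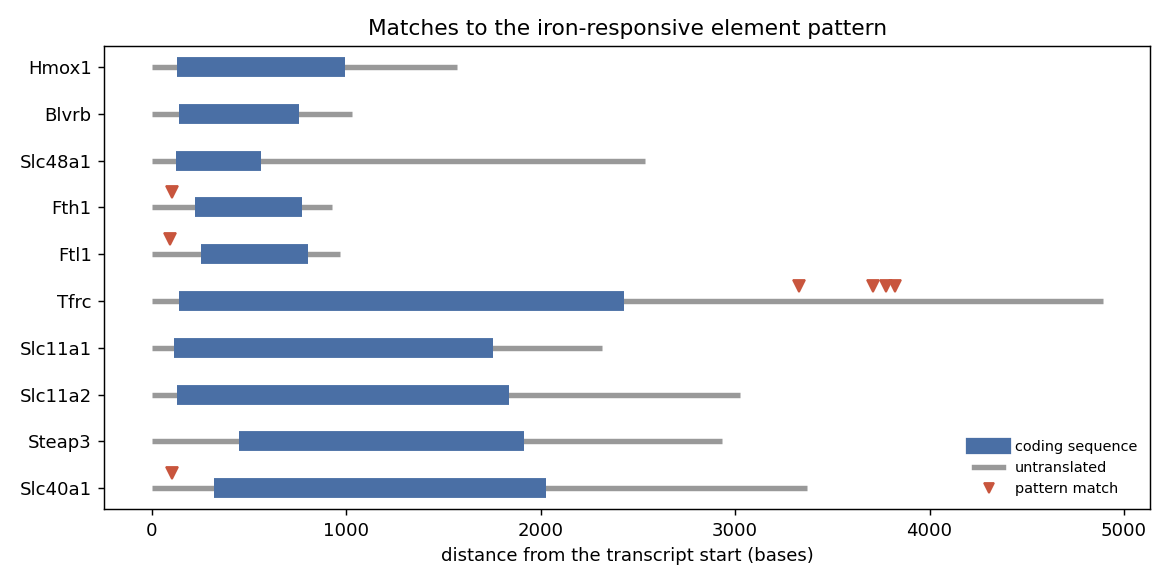
Transcripts of the 10 genes drawn to scale from their first base, in bases, with the coding sequence as a thick bar and the untranslated parts as a thin line. Triangles mark iron-responsive element matches: 1 before the coding sequence of Fth1, Ftl1 and Slc40a1 and 4 after that of Tfrc.

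Total counts ran from 34391206 to 43367734 per library, and 15567 genes were tested. Values below are CPM, counts scaled to a common library size after correction by TMM, a trimmed mean of ratios between libraries. A gene is called where edgeR's quasi-likelihood test gave a Benjamini-Hochberg adjusted p under 0.05 over all genes tested. Young replicate 3 stood apart from the other libraries on the second principal component (17.7% of the variance), and summed markers of stromal cells and osteoblasts reached 77970 CPM there against 27720 to 40130 CPM elsewhere. The macrophage label was checked against its markers. All 20 macrophage markers were detected, with mean levels of 473.2 and 226.3 CPM for the F4/80 gene Adgre1 and 131.3 and 43.3 CPM for the CD169 gene Siglec1 in young and old libraries. Per kilobase of exon, the type I collagen gene Col1a1 of stromal cells and osteoblasts averaged 2767 RPKM over all libraries, which goes against a culture of macrophages alone. Levels varied widely within both marker lists. The macrophage markers Adgre1 and Lyz2 averaged 108.0 and 3450 RPKM, and the stromal marker Dcn 6.29 RPKM. These values therefore give no proportion of the cell types. In such bulk values fewer cells of a type and less RNA per cell cannot be told apart.

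Of the 10 genes, 3 were higher in old libraries and 0 were lower, where 5.84% of all genes tested were called higher and 4.7% lower. Slc48a1, Hmox1 and Steap3 rose by a factor of 1.36 to 1.42. At an unadjusted edgeR p under 0.05 there were 5 higher and 0 lower, where 12.7% of all genes were higher and 11.1% lower. The DESeq2 test called 5 higher and 0 lower, where it called 8.56% of all genes higher and 7.31% lower. With limma-voom 3 were higher and 0 lower, where 6.06% and 4.55% of all genes were. For 5 genes the CPM range of old libraries lay wholly above that of young ones, against 15.9% of tested genes that separated upwards and 14.3% downwards. The median log2 fold change, old minus young, was 0.362 over the 10 genes and -0.0103 over all genes tested. Without young replicate 3 the count was 3 higher and 0 lower. In that fit 1459 of 15958 tested genes were higher and 1168 lower, against 909 and 731 of 15567 with all libraries. Leaving out old replicate 1 or old replicate 2 left 1 higher, where 418 of 15887 and 433 of 15849 tested genes were higher.

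**Figure D2:**
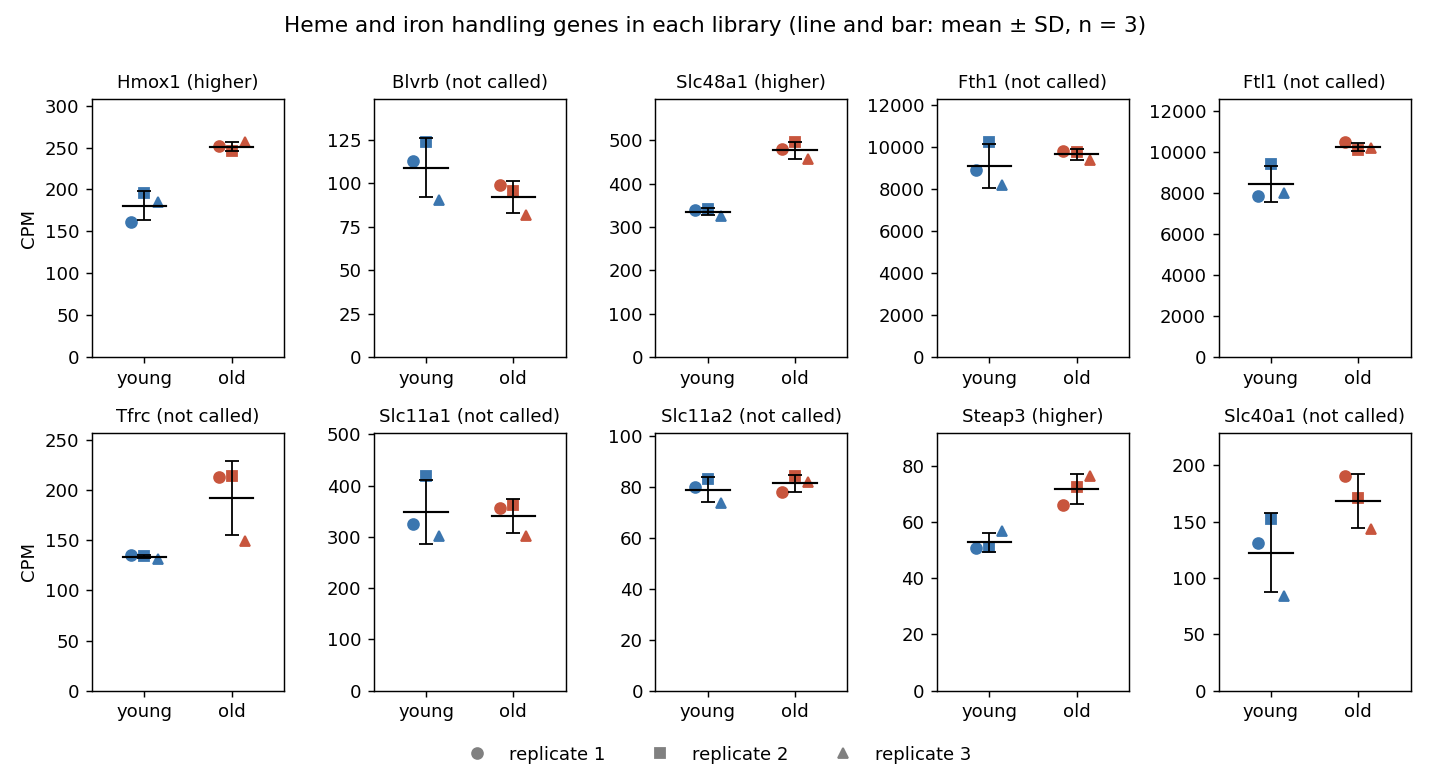
CPM of each of the 10 genes in young and old libraries, on linear axes from 0, with 1 point per library, its replicate number shown by shape, and the mean and SD of n = 3 in black. Old points lie above all young points for Hmox1, Slc48a1, Steap3, Ftl1 and Tfrc.

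Of the 3 genes of heme release and breakdown, 2 were higher in old libraries and 0 lower, where 5.84% of all genes tested were called higher and 4.7% lower. Slc48a1 (ENSMUSG00000081534, chromosome 15 at 97778520 to 97792692), which encodes the heme transporter HRG1, had 338.2, 341.9 and 325.6 CPM in young replicates 1, 2 and 3, against 479.9, 495.3 and 455.6 CPM in the old ones, in the same order throughout. Its lowest old library lay well above its highest young one. The means were 335.2 ± 8.57 and 476.9 ± 20.0 CPM (SD, n = 3), a log2 fold change of 0.51 with SE 0.07 (edgeR adjusted p = 0.00568). Slc48a1 was called without any 1 of the 6 libraries, with adjusted p up to 0.0414.

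Hmox1 (ENSMUSG00000005413, chromosome 8 at 75093621 to 75100589) encodes heme oxygenase 1, the inducible enzyme that opens the heme ring. It had 161.3, 195.3 and 184.8 CPM in the 3 young libraries and 251.6, 245.3 and 256.3 CPM in the 3 old ones. The old libraries lay close together and above all of the young ones. The means were 180.5 ± 17.4 and 251.1 ± 5.50 CPM (SD, n = 3), a log2 fold change of 0.48 with SE 0.09 (edgeR adjusted p = 0.0164). Leaving out old replicate 1, 2 or 3 ended the call (edgeR adjusted p = 0.0763, 0.0675 and 0.0729).

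Blvrb (ENSMUSG00000040466, chromosome 7 at 27447978 to 27466144) encodes biliverdin reductase B, which acts on biliverdin and related substrates downstream of heme oxygenase. It had 113.0, 123.6 and 90.43 CPM in the 3 young libraries and 99.1, 95.4 and 81.75 CPM in the 3 old ones, and the ages overlapped. Its log2 fold change was -0.24 with SE 0.13 (edgeR adjusted p = 0.338), not distinguishable from the spread between libraries. Hmox1 had 1.43, 1.58 and 2.04 counts per Blvrb count in young libraries, against 2.54, 2.57 and 3.14 in old ones, ratios that did not overlap between the ages. This ratio sets a called gene over one with a negative log2 fold change. It was chosen with the members' values known and carries no test.

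**Figure D3:**
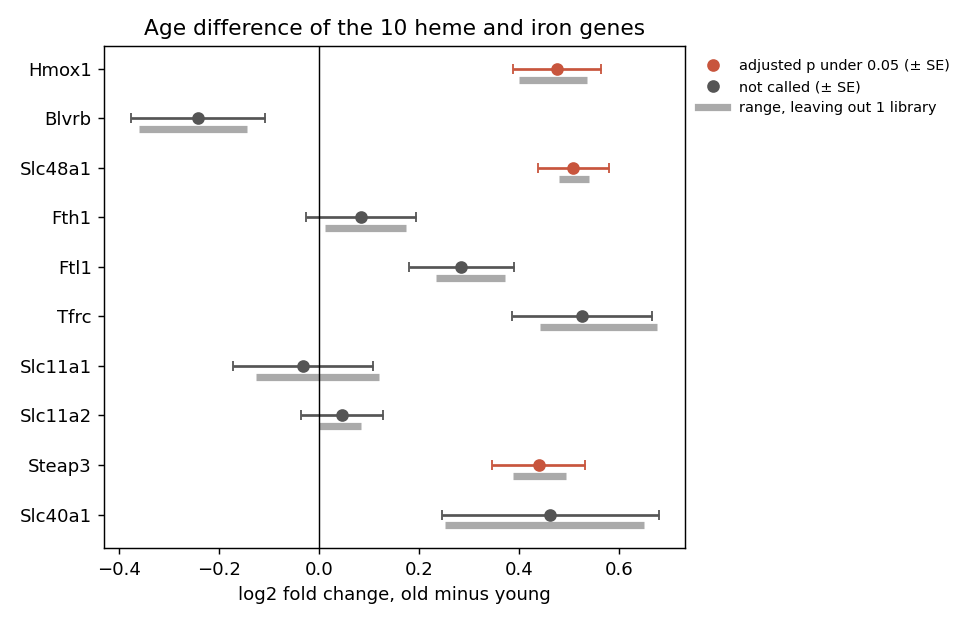
Log2 fold change, old minus young, of the 10 genes with its SE as a bar, coloured where the adjusted p was under 0.05, and beneath it in grey the range over the 6 fits that leave out 1 library. Slc48a1 has the narrowest error and range of the 3 called genes, and Slc40a1 the widest error of the 10.

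The ferritin chains were the most abundant of these transcripts, and neither was called. Fth1 (ENSMUSG00000024661, chromosome 19 at 9980598 to 9985098) encodes the heavy chain, which oxidizes iron for storage, and ranked 3 in the whole table by mean CPM, a scale that ignores length, with Ftl1 at rank 4. It had 8908, 10220 and 8167 CPM in the 3 young libraries and 9817, 9755 and 9352 CPM in the 3 old ones, with the highest value in young replicate 2. Its log2 fold change was 0.08 with SE 0.11 (edgeR adjusted p = 0.726). Ftl1 (ENSMUSG00000050708, chromosome 7 at 45457944 to 45459884), encoding the light chain that lines the iron core, had 7827, 9418 and 8012 CPM in the 3 young libraries and 10470, 10090 and 10190 CPM in the 3 old ones. Its ranges did not overlap, but the log2 fold change of 0.28 with SE 0.11 missed the threshold (edgeR adjusted p = 0.154; DESeq2 adjusted p = 0.0465).

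The ratio of the ferritin chains did not overlap between the ages, which in part restates the separated ranges of Ftl1 given above. Fth1 had 1.14, 1.09 and 1.02 counts per Ftl1 count in young libraries, against 0.938, 0.967 and 0.918 in old ones. These are ratios of counts, not corrected for length, so only their differences between libraries can be read. Together the ferritin chains took 1.52% to 2.01% of all counts in young and 1.95% to 2.05% in old libraries, which overlapped. These ratios and shares were chosen with the members' values known and carry no test.

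Counts of Ftl1 are uncertain because the gene has near-identical copies and shares its position. Of 11 gene models whose transcripts aligned to Ftl1 over at least 50% of its length at 85% identity or more, 7 had counts, which together came to 4.26% to 4.64% of the Ftl1 count. With them added, the log2 fold change of Ftl1 was 0.28 (edgeR adjusted p = 0.158). Of the exon length of Ftl1, 34.6% overlaps other gene models, and the microRNA model Gm22133 on the same strand held 17.6% to 19.7% as many counts as Ftl1 (adjusted p = 0.155 with these added). Fth1 had 1 such copy, with 0 counts in every library.

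Among the uptake genes only Steap3 was called. Steap3 (ENSMUSG00000026389, chromosome 1 at 120190757 to 120272705), the endosomal ferrireductase, had 50.89, 50.95 and 56.73 CPM in the 3 young libraries and 66.04, 72.47 and 76.48 CPM in the 3 old ones. All old values lay above all young ones. The means were 52.9 ± 3.36 and 71.7 ± 5.27 CPM (SD, n = 3), a log2 fold change of 0.44 with SE 0.09 (edgeR adjusted p = 0.0278). The call held without young replicate 3 and was lost on leaving out any other library (adjusted p between 0.0564 and 0.107).

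Tfrc (ENSMUSG00000022797, chromosome 16 at 32608920 to 32632794) encodes transferrin receptor 1. It had 135.0, 134.4 and 131.7 CPM in the 3 young libraries and 213.3, 214.5 and 149.7 CPM in the 3 old ones. The young libraries were nearly equal, and old replicate 3 lay nearer to them than to the other old libraries. The log2 fold change was 0.53 with SE 0.14, the largest of the 10, and was not called (edgeR adjusted p = 0.0594). Without old replicate 3 it was 0.68 and passed (adjusted p = 0.0102), as it did with the DESeq2 test on all libraries (adjusted p = 0.00899). It did not pass on leaving out any other library (edgeR adjusted p between 0.0909 and 0.203). Nor did it pass with limma-voom (adjusted p = 0.0704) or the replicate block (edgeR adjusted p = 0.0682). Per 1000 ferritin counts there were 8.07, 6.84 and 8.14 Tfrc counts in the 3 young libraries and 10.5, 10.8 and 7.66 in the 3 old ones, and these ranges overlapped.

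The NRAMP metal transporters showed no age difference that could be detected. Slc11a1 (ENSMUSG00000026177, chromosome 1 at 74375195 to 74386062) encodes NRAMP1 of the phagosome membrane, and BALB/c is among the inbred strains known to carry its loss-of-function allele. It had 325.1, 419.6 and 301.7 CPM in the 3 young libraries and 357.1, 363.3 and 302.5 CPM in the 3 old ones, with the extremes in young replicates 2 and 3. Its log2 fold change was -0.03 with SE 0.14 (edgeR adjusted p = 0.926), and its sign turned without young replicate 2 or old replicate 3 (0.12 and 0.05). Slc11a2 (ENSMUSG00000023030, chromosome 15 at 100387898 to 100425072), encoding DMT1, had 79.83, 83.06 and 73.52 CPM in the 3 young libraries and 77.84, 84.34 and 81.84 CPM in the 3 old ones. Its log2 fold change was 0.05 with SE 0.08 (edgeR adjusted p = 0.806). Its SE was smaller than that of Hmox1. Of its exon length, 6.33% overlaps a gene model on the other strand, and the kit does not mark the strand.

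Slc40a1 (ENSMUSG00000025993, chromosome 1 at 45908068 to 45926523) encodes ferroportin, the known cellular iron exporter. It had 130.7, 152.5 and 83.86 CPM in the 3 young libraries and 190.9, 171.2 and 143.6 CPM in the 3 old ones. Young replicate 3 was the lowest and young replicate 2 lay above old replicate 3, so the ages overlapped. The log2 fold change was 0.46 with SE 0.22 (edgeR adjusted p = 0.255), and 0.25 without young replicate 3 (adjusted p = 0.249).

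Ordered by RPKM, CPM per kilobase of the merged exons in GENCODE M21, Ftl1 and Fth1 led with medians over the 6 libraries of 7279 and 2754. Slc48a1 (144.9), Hmox1 (125.8) and Slc11a1 (92.07) followed, and ranges of neighbours in this trio overlapped. Blvrb (34.96) and Tfrc (23.02) overlapped as well. So did neighbours within the last trio of Slc40a1 (16.45), Slc11a2 (12.72) and Steap3 (10.74), but the ranges of Tfrc and Slc40a1 did not overlap. With the longest coding transcript as the length, the mean RPKM of Slc11a1 (149.0) stood above that of Hmox1 (137.5) and that of Slc40a1 (43.16) above that of Tfrc (33.35).

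The other genes of the pathway, 75 in 6 lists, mostly passed no test. Of the 69 tested, 7 were higher and 2 lower, where 5.84% of all genes tested were called higher and 4.7% lower. The median log2 fold change of the 69 was 0.0696. Without young replicate 3 these counts were 10 and 3, where 1459 of 15958 tested genes were higher and 1168 lower. Leaving out any other library left 2 to 4 higher and 1 to 2 lower, where 418 to 621 of all tested genes were higher and 294 to 494 lower. Heme synthesis had 1 of 8 higher and 0 lower (0 lower also at an unadjusted p and with DESeq2 or limma-voom). That gene was Alad, the second enzyme of the path, at 51.3 ± 4.12 CPM in the young libraries and 80.3 ± 7.43 CPM in the old ones (SD, n = 3; edgeR adjusted p = 0.0103). Leaving out old replicate 1 ended this call (edgeR adjusted p = 0.0519).

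Among 12 further genes of heme breakdown and transport, Hp was higher and Flvcr2 lower. Hp, which encodes the hemoglobin-binding plasma protein haptoglobin, rose 1.83-fold, from 220.8 ± 34.9 to 403.0 ± 65.8 CPM (SD, n = 3; edgeR adjusted p = 0.0158). Leaving out old replicate 1 or 3 ended the Hp call (edgeR adjusted p up to 0.0698). Flvcr2, of a family named for a virus receptor that also holds the heme exporter gene Flvcr1, was counted 104, 69 and 69 times in the 3 young libraries and 27, 37 and 25 times in the 3 old ones and was 3.06-fold lower (edgeR adjusted p = 0.0183). Its call ended on leaving out young replicate 1, old replicate 1 or old replicate 3 (edgeR adjusted p up to 0.0809). The hemoglobin scavenger receptor Cd163 was low in both ages, at 1.70 ± 0.438 and 2.55 ± 0.345 CPM (SD, n = 3; edgeR adjusted p = 0.250).

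Of 15 tested genes of iron import, reduction and efflux, 2 were higher and 1 lower, against 5.84% and 4.7% of all genes tested. Steap2, a metalloreductase related to Steap3, had 45.52, 52.45 and 46.42 CPM in the 3 young libraries and 103.1, 107.4 and 97.78 CPM in the 3 old ones. It rose 2.13-fold (edgeR adjusted p = 0.000886) and was called without any 1 library. Trf, encoding transferrin, rose 1.63-fold (adjusted p = 0.0239). The Trf call held without replicate 3 of either age and ended on leaving out any other library (edgeR adjusted p up to 0.0971), and 63.5% of its exon length is shared with Gm20425. Cybrd1, encoding the ferrireductase of the gut lining, was counted 32, 44 and 62 times in the 3 young libraries and 4, 0 and 0 times in the 3 old ones (edgeR adjusted p = 0.0122; 0.0516 without old replicate 2). The hormone gene Hamp, whose product hepcidin brings ferroportin to degradation, was among 3 genes of this list with 0 counts in all libraries.

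Iron sensing and mitochondrial iron genes were not called in either direction. Of 7 tested genes of iron sensing, chaperones and ferritin turnover, 0 passed by edgeR, by DESeq2 or by limma-voom, nor did any reach an unadjusted p under 0.05. Their most abundant members by CPM, which ignores length, were the iron chaperone gene Pcbp1, at 498.8 ± 16.7 and 455.7 ± 8.07 CPM (SD, n = 3; edgeR adjusted p = 0.312), and Glrx3 (adjusted p = 0.302). The regulatory proteins that bind the hairpins are encoded by Aco1 and Ireb2, whose log2 fold changes were 0.15 with SE 0.07 (edgeR adjusted p = 0.275) and -0.05 with SE 0.17 (edgeR adjusted p = 0.909). Of 15 mitochondrial iron and iron-sulfur genes, 0 passed with any of the 3 tools and 2 had an unadjusted p under 0.05. Glrx5 and Cisd2 had the highest CPM, again without regard to length (edgeR adjusted p = 0.415 and 0.659).

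Of 12 transcription factor genes of the pathway, 3 were higher and 0 lower (1 lower at an unadjusted p under 0.05, 0 with DESeq2 or limma-voom). The edgeR shares over all genes tested were 5.84% higher and 4.7% lower. Maff, a small MAF protein that pairs with NRF2 or BACH1, had 2.91, 3.96 and 3.83 CPM in the 3 young libraries and 11.5, 13.4 and 9.64 CPM in the 3 old ones and rose 3.23-fold (edgeR adjusted p = 0.00275), a call kept without any 1 library. The hypoxia factor genes Epas1 (2.57-fold, adjusted p = 0.0352) and Hif1a (1.29-fold, adjusted p = 0.0446) also rose. Both of their calls held without young replicate 3 and were lost on leaving out any other library (adjusted p up to 0.115 and 0.178). The NRF2 gene Nfe2l2 had a log2 fold change of 0.02 (SE 0.07, edgeR adjusted p = 0.910), and Bach1, the heme-sensing repressor of Hmox1, one of -0.40 (SE 0.13, edgeR adjusted p = 0.105). Spic, which drives the iron-recycling macrophage program, had few counts in both ages, at 0.952 ± 0.542 and 1.70 ± 0.465 CPM (SD, n = 3).

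**Figure D4:**
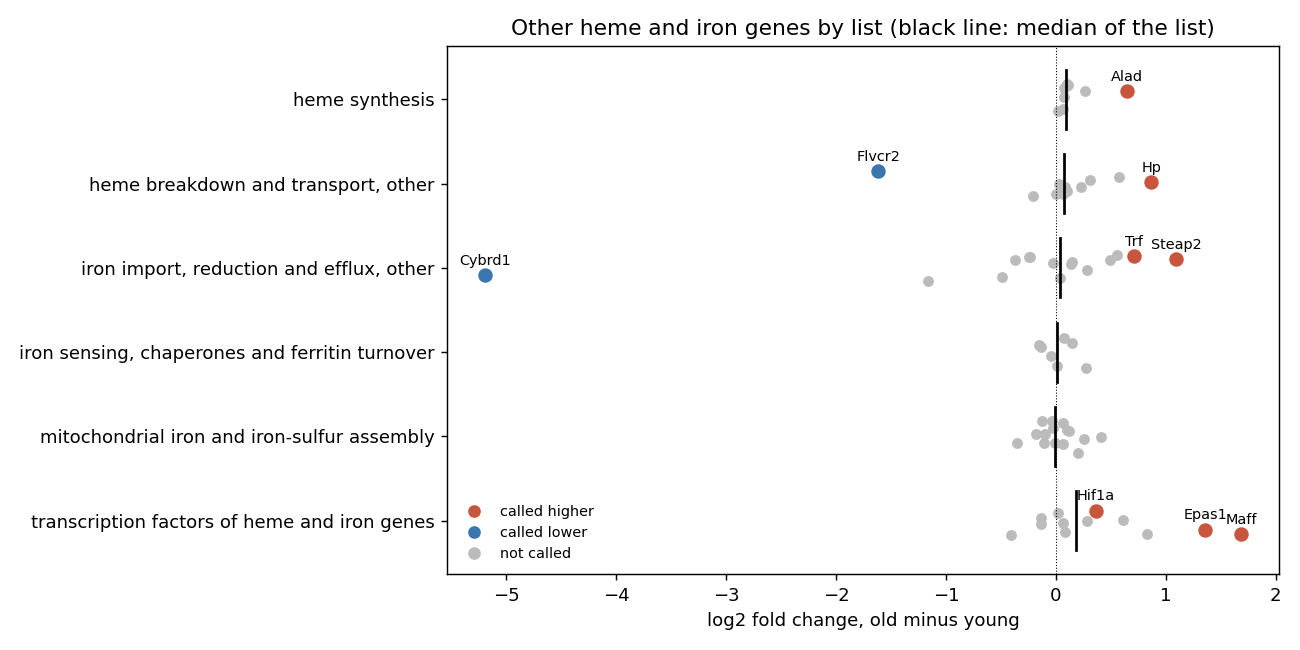
Log2 fold change, old minus young, of the 69 tested genes in the 6 lists of other heme and iron genes, 1 point per gene, with called genes named and coloured and the median of each list as a black line. The medians lie between -0.00751 and 0.183, and 9 genes are called. The position of Cybrd1, with 0 counts in 2 old libraries, depends on the prior count of the fit.

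Markers of several cell types moved with age in the same libraries, where 5.84% of all genes tested were called higher and 4.7% lower. Of 20 macrophage markers 16 were lower and 0 higher (0 higher also at an unadjusted p and with DESeq2 or limma-voom), and their summed level was 11300 to 12990 CPM in the young libraries and 6797 to 7300 CPM in the old ones. Slc11a1, a gene of macrophages and neutrophils, was not called between the ages. There were 28.8, 34.4 and 23.2 Slc11a1 counts per 1000 macrophage marker counts in the 3 young libraries and 48.9, 53.4 and 44.4 in the 3 old ones. With Slc11a1 nearly level and the marker sum lower, this ratio had to be higher in old libraries and adds no result. Lyz2 alone gave means of 6012 and 3068 CPM to the young and old sums. The ratio was chosen with the values known and carries no test. Of 17 stromal and osteoblast markers 5 were lower and 3 higher, summing to 35540 to 77970 CPM in the young libraries and 27720 to 34170 CPM in the old ones. Most of these sums came from Col1a1 (means of 24230 and 12100 CPM in young and old libraries) and Col1a2 (13570 and 7520 CPM). Neither collagen gene was called (edgeR adjusted p = 0.0783 and 0.158). Of 8 tested osteoclast markers 2 were higher and 0 lower (2 lower at an unadjusted p under 0.05, 1 with DESeq2), summing to 330.7 to 414.4 and 586.0 to 685.0 CPM. Of these 8 markers, 3 had a negative log2 fold change, and Atp6v0d2 alone went from a mean of 42.8 to 261.1 CPM. The part of these shifts in the levels of Slc48a1, Hmox1 and Steap3 was not tested.

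Blood cell markers other than those of macrophages moved too, beside the 5.84% of all genes tested called higher and 4.7% lower. B cell and plasma cell markers were higher for 9 of 10 tested, summing to 114.1 to 132.7 CPM in the young libraries and 326.2 to 511.1 CPM in the old ones. Megakaryocyte markers were higher for 5 of 11 (2 without young replicate 3), summing to 53.29 to 92.71 and 244.4 to 360.8 CPM, and those of neutrophils were higher for 1 and lower for 1 of 14 (1 and 3 with DESeq2), summing to 1472 to 2491 and 1004 to 1880 CPM. Of the 14 neutrophil markers, 13 had a negative log2 fold change, with a median of -0.619, and 5 were lower at an unadjusted p under 0.05. The B cell marker Cr2 had 0 counts in every library. Of 14 erythroid markers 3 were abundant enough to test, 0 were called, and Slc4a1 and Rhag had 0 counts in every library. The part of erythroid cells in the levels of the 10 genes was not tested. Summed erythroid markers came to 7.14 to 15.1 CPM in the young libraries and 6.08 to 9.33 CPM in the old ones. Of these sums Tfr2, which is also counted in the iron import list, gave 5.57 to 13.8 and 3.17 to 5.33 CPM. Without Tfr2 the sums were 1.57, 2.69 and 1.31 CPM in young replicates and 5.91, 2.91 and 1.94 CPM in old ones, and overlapped. With an unadjusted p under 0.05 there was 1 erythroid marker in each direction, and DESeq2 called 1 lower and limma-voom 0.

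**Figure D5:**
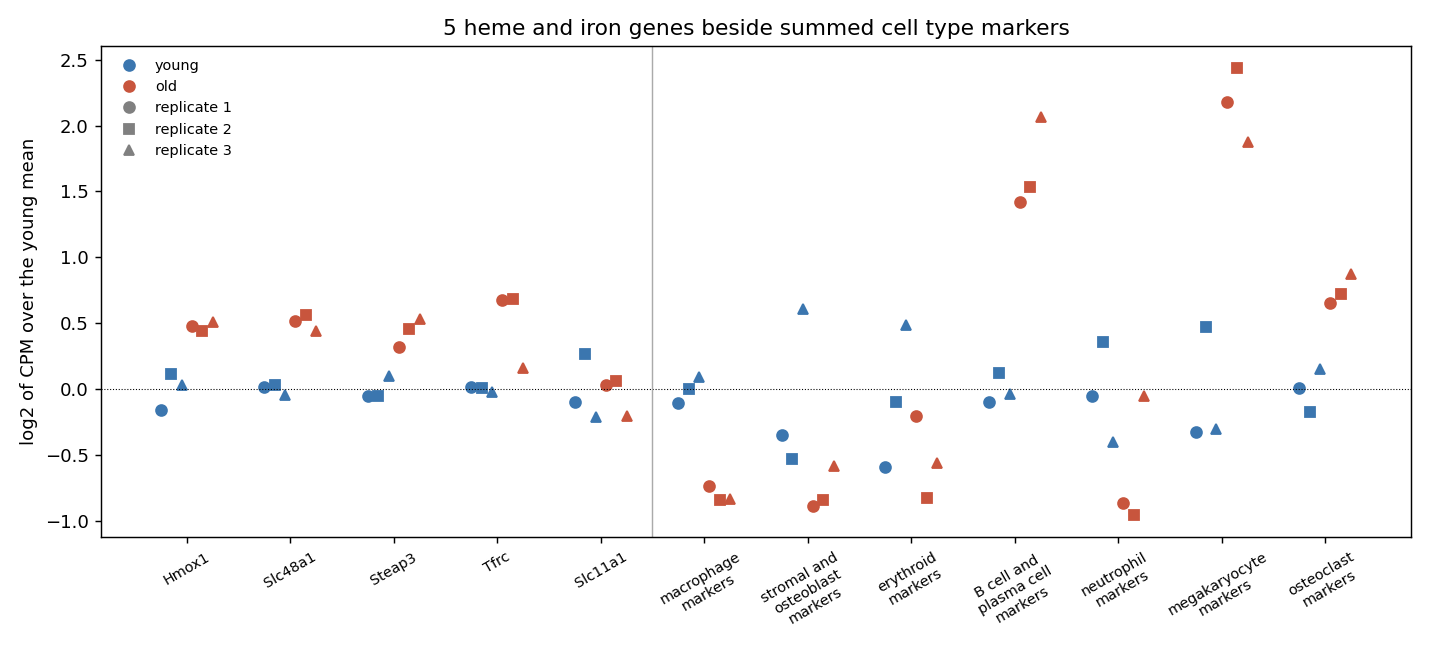
Log2 of the CPM of 5 genes (left of the line) and of the summed CPM of 7 cell type marker lists (right), each over its young mean, with 1 point per library, coloured by age and shaped by replicate number. Hmox1, Slc48a1 and Steap3 lie higher in old libraries while summed macrophage markers lie lower, and Slc11a1 overlaps between the ages.

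For each called gene the most similar genes were found among 10450 candidates with a mean of at least 5 CPM, by the root mean square difference of log2(CPM + 1) values centred on their mean over the 6 libraries. Slc48a1 was closest to Ifi27 (0.0331) and Hoxa10 (0.0338). Hmox1 was closest to Tulp3 (0.0479) and Galm (0.051), and Steap3 to Foxn3 (0.0396) and Rhoc (0.0457). None of these 6 is among the heme and iron genes listed here. With only 10 genes and 75 others listed against 10450 candidates, that outcome was likely in advance and says nothing about the pathway.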

How the data were processed

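RNA of 10000 cells per library was amplified with a kit that does not mark the strand and read as pairs of 100 bp, per the labels' protocols. The authors deposited raw counts per Ensembl gene, 1 column per library, and 0 columns were left unused. Tools named in the submitters' processing notes include STAR 2.6.1a, HISAT2 2.1.0 and StringTie 1.3.4d with the mm10 build. Not given in the sources used here were the counter, annotation release, strand setting and treatment of multiply mapped reads, so genes with copies or overlaps may share or lose reads. Symbols matched 37607 of 39017 identifiers.

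Counts were fitted across all genes in R 4.3.3 with edgeR 4.0.16 (filterByExpr, TMM, robust quasi-likelihood test, 15567 genes, Benjamini-Hochberg threshold 0.05) on age alone, and the SE is the absolute log2 fold change over the square root of F. The procedure was also run on counts simulated from the means and dispersions of these libraries, which checks the code and not its behaviour on real spread. Alternatives used DESeq2 1.42.0, limma 3.58.1, other scalings, filters, a replicate block and leaving out each library; sums with ferritin copies found by sequence and with Gm22133 were added after seeing the data. The genes and lists were chosen with earlier results of these data known. Named were all 10 genes, each called gene of the 6 other lists (the 2 most abundant where none was), and the 2 genes most similar to each called one; Cd163, Hamp, Aco1, Ireb2, Nfe2l2, Bach1, Spic and Tfr2 were named after their values were seen. In a chi-square comparison no pair of libraries within an age was alike to within counting error. Amplified reads carry no molecular identifiers. Values of some marker genes are not reported here.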

Additional observations from a re-analysis of the deposited data

How the results depend on the processing

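Of the 10 genes, the number higher was 3 under each scaling, filter and dispersion alternative, with limma-voom and with the replicate block, and 5 with the DESeq2 test; the number lower was 0 throughout. On leaving out 1 library it ranged from 1 to 3. The other heme and iron genes ranged from 2 to 10 higher and 1 to 3 lower when 1 library was left out, and 1 was lower with at least 50 counts in 3 libraries, a filter that Cybrd1 does not pass. Over all genes, those fits gave 418 to 1459 higher and 294 to 1168 lower, and the DESeq2 test 1137 lower. The log2 fold change of Slc11a1 changed sign without young replicate 2 (0.12) and old replicate 3 (0.05), within a range of -0.13 to 0.12, and that of Slc11a2 without young replicate 3 (-0.0012), within a range of -0.0012 to 0.084; no such value was called. The cause was not tested. Scaling moved the median of all genes by less than 0.1.

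Deviations of libraries with the same replicate number correlated at 0.129, 0.0338 and 0.158. Numbers were taken as pairs only where each correlation was over 0.1, which the 0.0338 of replicate 2 was not, although 5 of 6 libraries correlated best with their own number, a hint from the data and not the design. With the replicate block 711 genes were higher and 575 lower, 3 of the 10 genes were higher, and 5 of the other heme and iron genes were higher and 2 lower. Under the block Flvcr2, Trf and Hif1a were not called (edgeR adjusted p = 0.0577, 0.0543 and 0.0718), and Tfr2 was called lower (edgeR adjusted p = 0.0317). At this depth, genes of a few counts such as Cybrd1 are limited by counting error.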
